A study of Rattus norvegicus with 48 samples.

Results

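The mitochondrial ribosomal protein genes described here are the genes whose name is Mrpl or Mrps followed by a number. Of 32285 gene identifiers, 73 carried such a name once the identifier with the most counts was kept for each name, and all 73 had a mean of at least 1 CPM (counts per 1e+06 counts, scaled by TMM factors) over 48 libraries. The names stood on 76 identifiers, since Mrps36, Mrpl36 and Mrpl53 had an additional one. Means over the 48 libraries ran from 1.45 CPM for Mrpl1 to 62.9 CPM for Mrpl17. Of the 73, 46 encode proteins of the large subunit, 26 encode proteins of the small subunit, and Mrps36 encodes a component of the 2-oxoglutarate dehydrogenase complex that was once counted as a ribosomal protein. Mrps30 and Mrps18a are named for the small subunit, but their products sit in the large one and are counted there.

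Mitochondria hold ribosomes of their own, which translate the few mRNAs made from mitochondrial DNA into core subunits of the respiratory chain and of ATP synthase. The ribosomal RNAs are mitochondrial transcripts, whereas every protein of these ribosomes is encoded in the nucleus, made in the cytosol and imported. Some of the proteins descend from bacterial ribosomal proteins and others occur only in mitochondria, and loss of single members in patients impairs oxidative phosphorylation.

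Lung RNA was sequenced from male Sprague-Dawley rats that had breathed, with the whole body exposed, either filtered air or an aerosol of fracking sand dust at 30 mg/m3 and diesel particles at 1 mg/m3, for 6 hours a day on 4 days. Lungs were collected 1, 7 or 27 days later, with 8 air and 8 exposed rats each time. The dust and the diesel particles were given only together, so their effects cannot be told apart. The labels give body weight but no age, and say that rats were housed in pairs without naming cage mates. Each library came from a whole piece of lung, so a lower level can mean fewer cells of a type or less RNA per cell, which cannot be told apart. The depth of the libraries lay between 9445675 and 14400317 counts (median 12004516). Surfactant and other alveolar type 2 cell markers, 10 in number, summed to between 17117 and 26332 CPM in every library. Heart muscle markers, from 12 genes, summed to between 20.9 and 440 CPM, with a wide spread in every group.

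In 4 pairs of libraries the counts lay closer together than in any other pair of the same group. With libraries numbered 1 to 8 within a group, in order of animal number, these were exposed libraries 1 and 4 of day 1, air libraries 1 and 4 of day 7, exposed libraries 3 and 6 of day 7 and air libraries 3 and 6 of day 27. Their squared count differences came to between 1.44 and 1.67 times the counting noise; the remaining 164 pairs had 2.42 or more. The labels give each library its own animal number, and all 48 were kept. Results are also given with each close pair summed to 1 library wherever that changed a count by more than 1.5 times.

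The first question was whether exposure changed the members 1 day later. No member passed: 0 of 73 were higher and 0 were lower by edgeR's quasi-likelihood test at an adjusted p under 0.05. Over all 14314 genes tested at day 1, 0% were higher and 0.0279% were lower. The median log2 fold change of the members was -0.03, with 50 of 73 below 0, beside 0.00 over all genes. Mrps22 and Mrpl45 were the 2 members that reached an unadjusted p under 0.05 by edgeR, beside 1241 of all 14314 genes. DESeq2, another count test, called 0 members at an adjusted p under 0.05. Air and exposed groups overlapped for every member, while 0.0699% of all genes were lower and 0.00699% higher without overlap.

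Mrps22 encodes a mitochondria-specific protein of the small subunit and had the smallest p at day 1. Its level was 15.9, 16.5 and 17.8 CPM (lowest, median and highest) in air lungs and 13.01, 14.98 and 16.31 CPM in exposed lungs. The groups overlapped, with 7 of 8 exposed libraries below the lowest air library. The log2 fold change was -0.18 ± 0.056 (SE, n = 8 against 8), and the adjusted p of 0.401 from edgeR did not pass. The members next in order of p were Mrpl45 at -0.13 and Mrpl41 at -0.11 on one side, and Mrpl16 at 0.09, Mrps6 at 0.12 and Mrpl18 at 0.06 on the other, all as log2 fold changes, with adjusted p of 0.574 to 0.814 from edgeR.

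At day 7, 0 of 73 members were higher and 0 were lower by edgeR, as was true of all 14259 genes tested (0% in both directions). The median log2 fold change of the members was -0.04, with 58 of 73 below 0, beside 0.00 over all genes. An unadjusted p under 0.05 from edgeR was reached by 5 members, beside 1208 of all 14259 genes, and DESeq2 called 0 members. The groups overlapped for every member, while 0.0351% of all genes were lower and 0.00701% higher without overlap. The member with the smallest p was Mrpl27, whose product lies near the site where peptide bonds form. It stood at 26.6, 29.3 and 30.6 CPM in air lungs and at 23.41, 24.95 and 27.51 CPM in exposed lungs (lowest, median and highest). The groups overlapped only at their edges: 7 of 8 air libraries lay above the highest exposed library, and 6 of 8 exposed libraries lay below the lowest air library. Its log2 fold change was -0.19 ± 0.048, with an adjusted p of 0.302 from edgeR.

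Mrps27, which encodes an RNA-binding protein of the small subunit, stood at 16.8, 18.3 and 22.3 CPM in air lungs and at 15.11, 15.97 and 17.70 CPM in exposed lungs at day 7. Here 7 of 8 exposed libraries lay below the lowest air library, and the log2 fold change was -0.21 ± 0.061 (adjusted p = 0.379, edgeR). Mrps6, a bacterial-type protein of the small subunit, leaned the other way at 0.23 ± 0.084 (adjusted p = 0.466, edgeR). Its exposed libraries ran from 7.78 to 10.6 CPM and its air libraries from 6.49 to 9.21 CPM, and the overlap came from 1 exposed library, library 7; the other 7 of 8 lay above every air library.

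At day 27, 9 of 73 members were lower in exposed lungs and 0 were higher by edgeR. Over all 14192 genes tested, 3.33% were lower and 2.18% were higher. The median log2 fold change of the members was -0.14, beside -0.01 over all genes, and 71 of 73 lay below 0. The exceptions were Mrpl51 at 0.06 ± 0.061 (adjusted p = 0.554, edgeR) and Mrpl33 at 0.02 ± 0.211 (adjusted p = 0.968, edgeR). The 9 differences were small, with log2 fold changes of -0.37 to -0.23. An unadjusted p under 0.05 from edgeR was reached by 34 members, beside 3790 of all 14192 genes. No member had air and exposed groups that did not overlap, beside 0.225% of all genes lower and 0.225% higher without overlap.

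Both subunits held members that were lower in exposed than in air lungs. In the large subunit 4 of 46 were lower, the 46 having a median log2 fold change of -0.12, and in the small subunit 5 of 26 were lower, with a median of -0.18. Among proteins with a bacterial homologue 6 of 43 were lower, and among mitochondria-specific proteins 3 of 29 were. Whether the subunits or the origins differ was not tested.

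**Figure D1:**
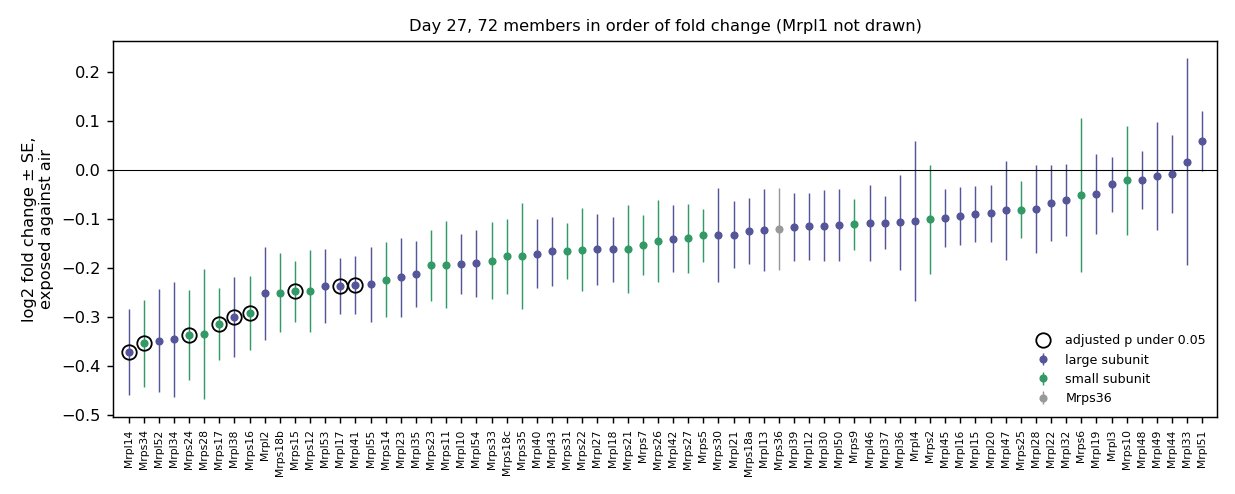
Log2 fold change ± SE of exposed against air lungs at day 27 (vertical axis) for 72 members in order of size (horizontal axis), coloured by subunit; open rings mark the 9 members with an adjusted p under 0.05. Nearly all points lie below 0, and the 9 ringed members lie between -0.37 and -0.23; Mrpl1, at -0.38 with an SE of 0.48, is not drawn.

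Among small subunit members, Mrps17 had the smallest p at day 27. It encodes the mitochondrial relative of bacterial protein S17 and stood at 20.2, 27.6 and 31.5 CPM in air lungs and at 19.3, 21.7 and 22.8 CPM in exposed lungs (lowest, median and highest of 8). All but 1 air library lay above the highest exposed library, and the low one, air library 2, lay inside the exposed range. The log2 fold change was -0.31 ± 0.073 (adjusted p = 0.0297, edgeR).

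Mrps15, Mrps16 and Mrps24 also encode relatives of bacterial small subunit proteins. Mrps15 ran from 28.4 through a median of 32.1 to 38.2 CPM in air lungs and from 25.9 through 26.6 to 29.6 CPM in exposed lungs, which differed by -0.25 ± 0.062 on the log2 scale (adjusted p = 0.0352, edgeR). Mrps16 ran from 18.4 through 21.2 to 24.5 CPM and from 14.8 through 17.8 to 20.1 CPM, a log2 difference of -0.29 ± 0.076 (adjusted p = 0.0368, edgeR). Mrps24 ran from 23.3 through 28.1 to 35.4 CPM and from 18.5 through 21.9 to 27.5 CPM, a log2 difference of -0.34 ± 0.091 (adjusted p = 0.0403, edgeR). For each of these genes the 8 exposed libraries were all under the mean of the air group, and the ranges overlapped at their edges, with 6, 7 and 6 of 8 air libraries above the highest exposed one.

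Mrps34 was the mitochondria-specific protein of the small subunit among those that were lower in exposed lungs. It stood at 13.5, 17.9 and 21.9 CPM in air lungs and at 11.90, 14.07 and 15.01 CPM in exposed lungs. The low air libraries lay inside the exposed range and 6 of 8 air libraries above it. The log2 fold change was -0.35 ± 0.089 (adjusted p = 0.0348, edgeR).

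In the large subunit, Mrpl14 showed the largest difference of the 9. Its product is the relative of bacterial L14, a protein at the face where the subunits meet. It stood at 30.11, 38.59 and 48.0003 CPM in air lungs and at 24.9, 30.3 and 33.4 CPM in exposed lungs, and its mean was 22.7% lower. The log2 fold change was -0.37 ± 0.088 (adjusted p = 0.0313, edgeR), and 6 of 8 air libraries lay above the exposed range.

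Mrpl17, the relative of bacterial L17, stood at 63.9, 69.6 and 85.3 CPM in air lungs and at 53.1, 60.2 and 66.3 CPM in exposed lungs. Only 1 exposed library reached into the air range. The log2 fold change was -0.24 ± 0.057 (adjusted p = 0.0332, edgeR).

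Mrpl41 and Mrpl38 encode mitochondria-specific proteins of the large subunit. Mrpl41 stood at 26.3, 30.1 and 32.3 CPM in air lungs and at 23.5, 24.6 and 29.1 CPM in exposed lungs, with a log2 fold change of -0.23 ± 0.058 (adjusted p = 0.0342, edgeR). Mrpl38 stood at 14.94, 16.61 and 19.99 CPM in air lungs and at 11.2, 13.7 and 17.4 CPM in exposed lungs, with a log2 fold change of -0.30 ± 0.082 (adjusted p = 0.0408, edgeR). In both genes most exposed libraries lay below every air library, 6 of 8 for Mrpl41 and 7 of 8 for Mrpl38, and the highest exposed library lay within the air range. The first member short of the threshold was Mrpl52, at -0.35 ± 0.106 (adjusted p = 0.0575, edgeR).

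**Figure D2:**
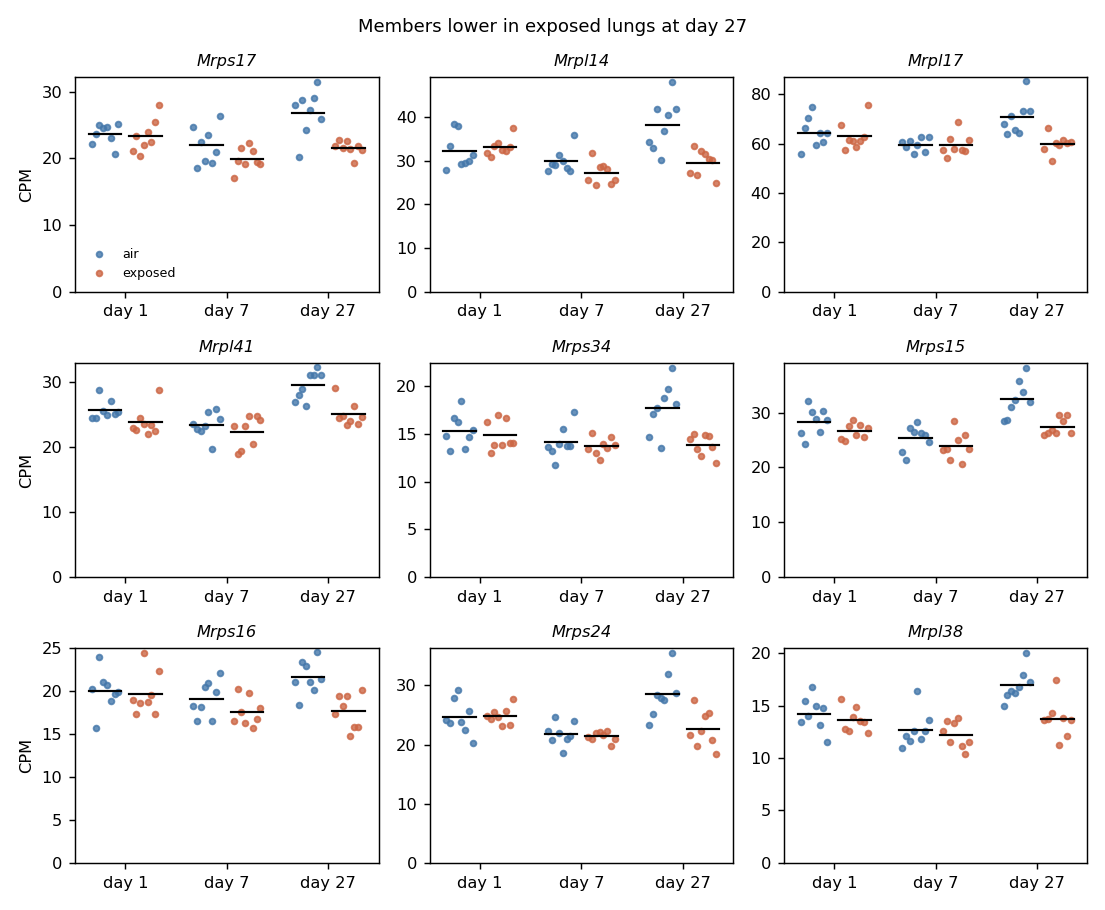
CPM of the 9 members that were lower at day 27, in each of the 48 libraries (points, 8 per group) by day and treatment, with group means as black lines. At day 27 the exposed points sit below most air points in each panel, and the groups overlap at every day. The 9 were chosen by their day 27 result, so the panels do not compare the days. The highest air point for Mrpl17 at day 27 is at 85.3 CPM.

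The count of 9 rested on the set of libraries. With each close pair summed no member passed (edgeR adjusted p of the 9 from 0.0612 to 0.0746), and the count was 0 without air library 3, 6, 7 or 8 or exposed library 3, 6, 7 or 8, 2 without air library 5 or exposed library 1, 15 without exposed library 2 and 20 without air library 2; DESeq2 called 18 and a fit of all 48 libraries called 24. Across all alternatives run the 9 stayed below 0, between -0.41 and -0.19 on the log2 scale. The share of all genes called under each alternative is not given here. Whether the count of members moved apart from that of all genes is therefore not shown.

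Several members with a role of their own did not pass at any single day by edgeR. Mrpl12, which forms the stalk that recruits translation factors, had log2 fold changes of 0.07, -0.02 and -0.11 at days 1, 7 and 27. Mrps12, whose product lies at the decoding centre, had values of -0.05, -0.10 and -0.25 on the same scale, the last with an adjusted p of 0.0773 from edgeR. It did pass at day 27 with DESeq2 (adjusted p = 0.0461). By edgeR it passed there without air library 2 (adjusted p = 0.0457) or without exposed library 2 (adjusted p = 0.0346). Mrps12 at day 27 stood at 14.7, 17.4 and 18.9 CPM in air lungs and at 11.7, 14.4 and 17.2 CPM in exposed lungs, so the ranges overlapped.

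Mrpl44, which has the fold of a ribonuclease III, had log2 fold changes of 0.02, -0.09 and -0.01 at days 1, 7 and 27. Mrps22 had values of -0.18, -0.04 and -0.16, Mrps30 of -0.03, -0.05 and -0.13, and Mrps18a of -0.12, -0.12 and -0.12. Mrps36, the dehydrogenase component, had values of -0.07, 0.03 and -0.12. The values nearest 0 among these changed sign when single libraries were left out.

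The mean level of the 73 members per library, as the mean of log2 CPM, summarises the set; it has no test here. At day 1 it was 4.29 ± 0.08 (SD, n = 8) in air and 4.25 ± 0.07 in exposed lungs, a difference of -0.04 ± 0.037 (SE). At day 7 it was 4.19 ± 0.05 and 4.15 ± 0.03, a difference of -0.05 ± 0.020. At day 27 it was 4.43 ± 0.11 and 4.27 ± 0.06, a difference of -0.16 ± 0.046. On that day the air libraries ran from 4.27 through a median of 4.46 to 4.62, and the exposed libraries from 4.20 through 4.25 to 4.40. The 8 exposed libraries were all under the air mean, 4 of them below every air library, while air libraries 1, 2 and 4 lay within the exposed range. The members took 0.178% of all counts in air and 0.159% in exposed lungs at day 27. Leaving out single libraries moved the day 27 difference to between -0.18 and -0.14.

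**Figure D3:**
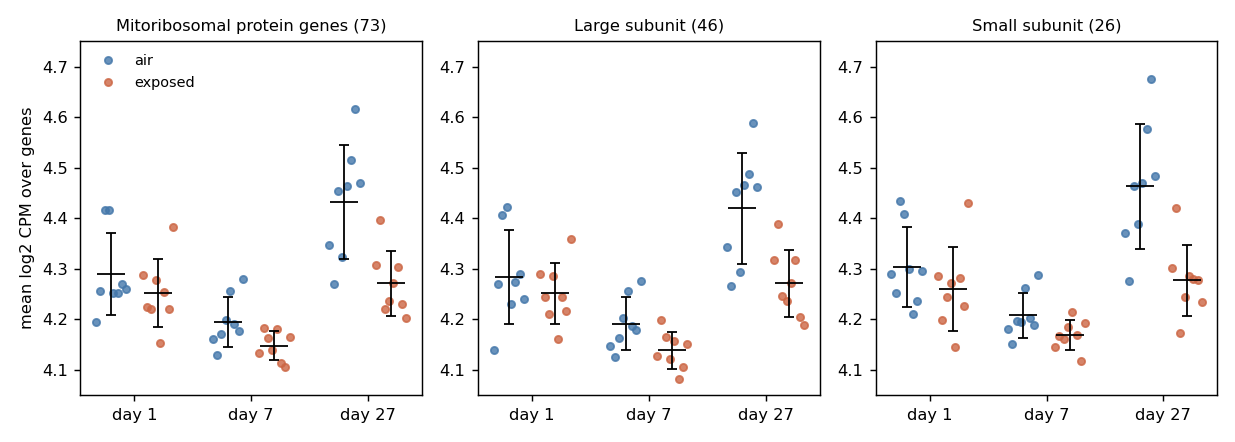
Mean log2 CPM per library (vertical axis; points, 8 per group) over all 73 members, the 46 large subunit members and the 26 small subunit members, by day and treatment, with group mean and SD in black. Air lungs at day 27 hold the highest group mean in each panel (4.43 over all members), and exposed lungs at day 27, at 4.27, lie near the level of day 1.

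The exposure effects of different days were also compared directly. By edgeR, 0 of 73 members were called in either direction for day 7 minus day 1 (0% of all genes higher, 0% lower), for day 27 minus day 1 (0.31% higher, 0.189% lower) and for day 27 minus day 7 (0.0135% higher, 0.00673% lower). An unadjusted p under 0.05 from edgeR was reached by 1, 17 and 12 members, beside 1114, 2166 and 2206 of all 14852 genes tested. The median differences of the members were -0.01, -0.11 and -0.12 on the log2 scale, beside 0.00, -0.01 and 0.00 over all genes. The smallest p was that of Mrpl14 between day 27 and day 1, at -0.41 ± 0.107 (adjusted p = 0.0546, edgeR). DESeq2 called 2 members for day 27 minus day 1 and 0 for the others. The effect seen at day 27 is thus not shown to differ from that at the earlier days for any single member by edgeR.

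Averaged over the 3 days, 14 of 73 members were lower and 0 were higher by edgeR, beside 3.73% of all genes lower and 3.15% higher. The median log2 fold change of the members was -0.08, with 70 of 73 below 0, beside -0.01 over all genes. Each subunit held 7 of the 14. The member with the smallest p was Mrpl27, at -0.15 ± 0.034 (adjusted p = 0.00909, edgeR). Its exposed group had the lower mean at each day, 29.2 against 31.3 CPM at day 1, 25.5 against 29.1 CPM at day 7 and 29.6 against 33.1 CPM at day 27.

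Mrpl41, Mrps15, Mrps17, Mrpl14, Mrps16 and Mrps34, which were lower at day 27, were also among the 14, with average log2 fold changes of -0.16 to -0.14. The average uses the day 27 libraries, so this is no separate support. Others were Mrps27 at -0.14, Mrps23 and Mrpl40 at -0.13 and -0.12, Mrps18a at -0.12 and Mrpl23 at -0.15, with edgeR adjusted p of 0.0175 to 0.0342. Mrps22, which did not pass at any single day, was lower in the average at -0.13 ± 0.041 (adjusted p = 0.0474, edgeR). Mrpl23 encodes the relative of the bacterial protein L23 beside the exit of the peptide tunnel. With each close pair summed, 7 members were lower in the average.

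The start regions of these genes can be set beside the results. RefSeq's promoter table for the rat build GRCr8 held 58 of the 73 members, with 250 bases before and 50 after the annotated start. Motifs of factors known to act on nuclear genes for mitochondrial proteins were searched as exact letters on both strands over the 300 bases: CCGGAAG for ETS factors such as GABP, AAGATGGCG for YY1, and for NRF1 the letters capitalised in the Mrpl17 window with any base at the fifth place. None of the motifs contains another. The ETS letters occurred in 32.8% of the 58 members, in 16.9% of the 9959 genes tested at day 27 that had a promoter entry and in 9.63% of all entries. The YY1 letters occurred in 15.5%, 3.71% and 1.99% of these, and the NRF1 letters in 13.8%, 9.73% and 4.82%. Of the 9 members lower at day 27, 6 had an entry, of which 2 held the NRF1 letters and 0 the other motifs. A match of letters is a description of the window only.

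The last 100 bases before the annotated start are shown for 5 members, 5′ to 3′ on the gene's strand, with motif letters in capitals. Mrpl17 (chr1:169575700-169575799, minus strand) was lower in exposed lungs at day 27 and holds the NRF1 letters. Mrps17 (chr12:32587813-32587912, minus strand) had the smallest p at day 27 and holds none of the motifs. Mrpl27 (chr10:80092245-80092344, plus strand), Mrps27 (chr2:32474104-32474203, plus strand) and Mrps18a (chr9:22367381-22367480, minus strand) were lower in the average over days and hold the ETS letters, in Mrps27 on the opposite strand. Mrps27 and Mrps18a also hold the YY1 letters after the annotated start, outside the bases shown. Of other members lower in the average, Mrpl23 holds the ETS letters and Mrpl14 the NRF1 letters. Mrpl41, Mrps15, Mrps16, Mrps17, Mrps23 and Mrpl40 were lower in the average too and hold none of the motifs. Whether motif letters go with the average result was not tested.
Mrpl17: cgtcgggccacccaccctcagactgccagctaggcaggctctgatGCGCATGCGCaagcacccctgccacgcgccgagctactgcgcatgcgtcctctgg
Mrps17: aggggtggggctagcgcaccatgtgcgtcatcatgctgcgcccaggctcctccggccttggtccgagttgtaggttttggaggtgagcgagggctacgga
Mrpl27: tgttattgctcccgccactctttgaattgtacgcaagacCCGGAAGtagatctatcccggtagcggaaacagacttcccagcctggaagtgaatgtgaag
Mrps27: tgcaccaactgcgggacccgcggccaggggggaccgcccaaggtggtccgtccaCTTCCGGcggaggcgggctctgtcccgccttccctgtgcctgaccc
Mrps18a: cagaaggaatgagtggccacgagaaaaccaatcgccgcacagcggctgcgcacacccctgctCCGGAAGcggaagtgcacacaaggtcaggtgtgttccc

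The other parts of mitochondrial protein synthesis were read from lists of named genes. Of 6 measured mitoribosomal proteins that carry other names, 1 was lower at day 27, Gadd45gip1, a large subunit protein, at -0.27 ± 0.073 (adjusted p = 0.0430, edgeR), and all 6 lay below 0. Of 12 genes in the list of translation factors, 2 were lower. Tsfm, elongation factor Ts, stood at -0.37 ± 0.081 (adjusted p = 0.0288, edgeR). Oxa1l stood at -0.20 ± 0.047 (adjusted p = 0.0303, edgeR). It was kept in that list although its product is no translation factor and inserts the new proteins into the inner membrane. The 12 had a median of 0.02 on the log2 scale, with 7 above 0. Over all genes tested at day 27, 3.33% were lower by edgeR.

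None of 17 mitochondrial tRNA synthetases, 21 genes for ribosome assembly and RNA modification, 14 genes for mitochondrial transcription and RNA handling and 10 measured regulators of mitochondrial biogenesis passed at day 27 by edgeR. Their medians were -0.05, -0.09, -0.07 and 0.06 on the log2 scale. An unadjusted p under 0.05 from edgeR was reached by 5, 3, 6 and 3 of them, beside 3790 of all 14192 genes tested. At days 1 and 7 no gene of any of these lists passed by edgeR.

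The mRNAs that these ribosomes translate did not lie lower with them. Of 11 measured mitochondrially encoded mRNAs, 8 lay above 0 at day 27, with a median log2 fold change of 0.08. Mt-nd3, a complex I subunit, was lower at -0.20 ± 0.057 (adjusted p = 0.0491, edgeR), and none was higher. Their share of all counts was 2.52% ± 0.15 (SD, n = 8) in air and 2.61% ± 0.16 in exposed lungs, ranges that overlapped.

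Cytosolic ribosomal proteins and the nuclear subunits of the respiratory chain and ATP synthase lay lower on the same day. Of 73 tested cytosolic ribosomal protein genes 36 were lower, with a median of -0.23. Of 76 nuclear respiratory chain and ATP synthase genes 26 were lower, with a median of -0.20. In both sets 0 were higher, beside 3.33% of all genes lower and 2.18% higher. At days 1 and 7 none of either set passed by edgeR. Whether the size of the difference varies between these sets and the members was not tested.

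**Figure D4:**
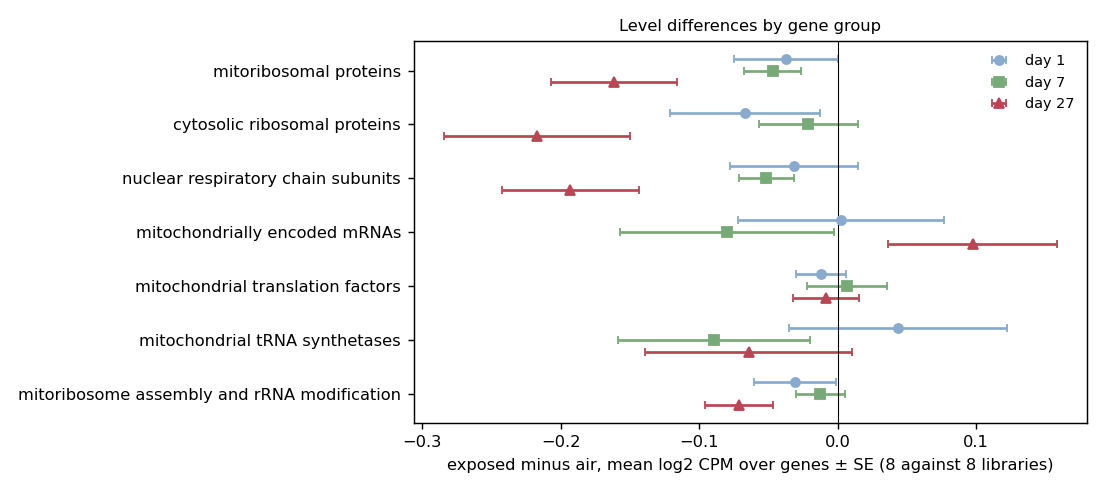
Difference of exposed minus air lungs in mean log2 CPM (horizontal axis; point ± SE, 8 against 8 libraries) for the members and 6 related gene groups (rows) at days 1, 7 and 27. At day 27 the members (-0.16), the cytosolic ribosomal proteins (-0.22) and the nuclear respiratory chain subunits (-0.19) lie below 0, and the mitochondrially encoded mRNAs (0.10) lie above it.

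Markers of lung cell types were read beside the day 27 result, when 3.33% of all genes were lower and 2.18% higher by edgeR. B and plasma cell markers leaned lower, with 9 of 9 genes below 0, a median of -0.58 and 2 called by edgeR, Cd79a and Fcrla. Their summed level ran from 330 to 1138 CPM in air lungs and from 427 to 854 CPM in exposed lungs, with none of the 9 at 0 in either group. Of 8 tested alveolar macrophage markers Pparg and Cidec were lower, of 9 endothelial markers Tie1, and of 9 ciliated cell markers Tppp3. Alveolar type 2, heart muscle and red cell markers had none called by edgeR out of 10, 10 and 5. The summed heart markers ran from 50.5 to 425 CPM in air and from 20.9 to 364 CPM in exposed lungs, with Nppa at 0 in both. The part of any of these in the levels of the members was not tested.

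The members also differed between days in rats that had breathed air. Each day had its own rats, so time cannot be told apart from any batch of collection or sequencing. At day 27 against day 7, 51 of 73 members were higher and 0 were lower by edgeR, beside 20% of all genes higher and 19.7% lower. All 73 lay above 0, with a median log2 fold change of 0.24, beside 0.02 over all genes. Mrps15 had the smallest p, at 0.36 ± 0.062 (adjusted p = 2.09e-05, edgeR). Its libraries ran from 21.5 to 28.3 CPM at day 7 and from 28.4 to 38.2 CPM at day 27. Others with log2 fold changes of 0.32 to 0.42 were Mrpl30, Mrps23, Mrpl41, Mrpl54, Mrps24, Mrpl38 and Mrpl42. From day 1 to day 7, 0 members were called (5.26% of all genes higher, 3.06% lower), with 67 of 73 below 0 and 0 called by DESeq2. Of the 73, 15 had an unadjusted p under 0.05 from edgeR, beside 3864 of all 14852 genes. From day 1 to day 27, 21 were higher and 0 lower (9.15% and 8.45% of all genes), or 13 higher with each close pair summed.

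In exposed lungs the differences between days were read in the same way for 2 steps, with the same limit. At day 27 against day 7, 14 of 73 members were higher and 0 were lower by edgeR (6.36% and 5.69% of all genes), with a median of 0.12. Mrps23, a mitochondria-specific protein of the small subunit, had the smallest p, at 0.26 ± 0.062 (adjusted p = 0.00423, edgeR). All 14 were among the 51 that were higher in air lungs. Those 51 are most of the 73 members, so a large overlap was likely beforehand. These comparisons share no library but come from 1 fit of 48 libraries and the same days of collection. From day 1 to day 7, Mrpl14 at -0.29 ± 0.076 (adjusted p = 0.0363, edgeR) and Mrpl18 at -0.20 ± 0.057 (adjusted p = 0.0467, edgeR) were lower and 0 were higher (1.16% and 0.983% of all genes); DESeq2 called 5, and 0 passed with each close pair summed. The air libraries of day 27 enter both the air comparison and the comparison of exposed with air lungs at day 27, so these are not independent. Whether the change from day 7 to day 27 differs between air and exposed lungs is the difference of exposure effects given above, for which no member passed by edgeR.

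**Figure D5:**
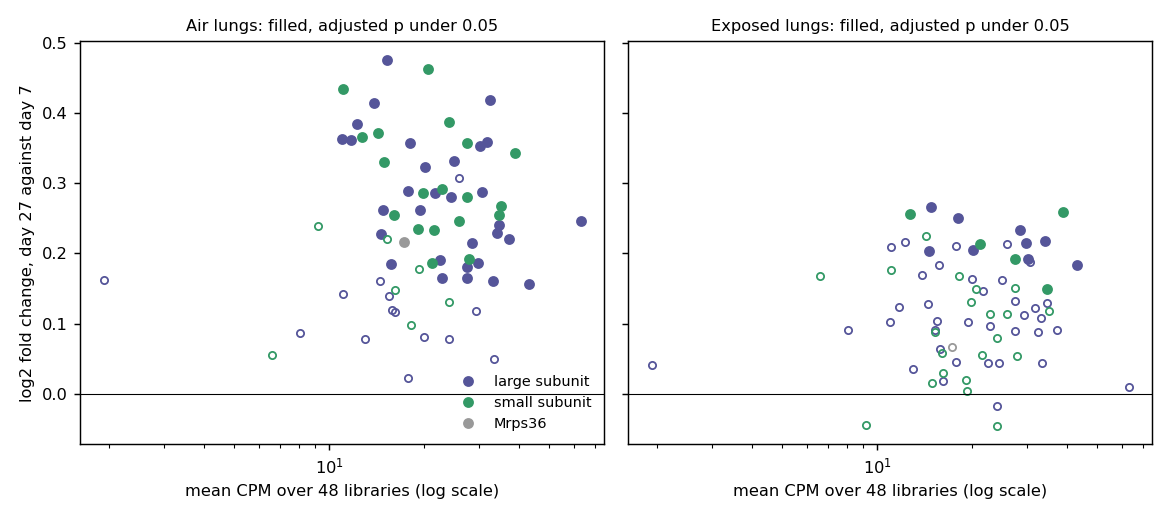
Log2 fold change of day 27 against day 7 (vertical axis) against mean CPM over 48 libraries (horizontal axis, log scale) for 72 members in air lungs (left) and exposed lungs (right), coloured by subunit; filled points have an adjusted p under 0.05. There are 51 filled points in air lungs and 14 in exposed lungs; Mrpl1, at 0.62 and 0.34 and not called in either, is not drawn.

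Within groups the members varied together to different degrees. With group means removed, the correlation of a member with the mean of the other members over 48 libraries ran from -0.05 for Mrps22 through a median of 0.47 to 0.80 for Mrpl54, and 31 of 73 lay above 0.5. These libraries share their depth and composition across genes, so the values are a description. The spread within groups had a median SD of 0.14 on the log2 scale and was largest for Mrpl1, at 1.12, the member with the lowest counts. Mrps28 in air lungs at day 27 stood at 19.45 and 18.38 CPM in the close pair, libraries 3 and 6, at 16.05 CPM in library 7 and at 10.03 to 11.70 CPM in the others.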

How the data were processed

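The authors deposited expected counts per gene, not normalized, in 3 tables, 1 per day. Per the submitters' processing notes, the tools were Salmon 1.10.1, STAR 2.6.1d, Trim Galore 0.6.7, cutadapt 3.4 and bcl2fastq 2.19, with Rnor_6.0 as the genome build. Per the labels' protocols, a strand-preserving mRNA kit was used. Of the expected counts, 5.58% per library lay more than 1e-06 from a whole number; rounded values were used throughout.

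Each day had its own fit in edgeR 4.0.16, under R 4.3.3 (TMM factors, filterByExpr, robust quasi-likelihood F test, Benjamini-Hochberg adjustment over all genes tested, threshold 0.05). Day contrasts used 1 fit of 48 libraries, and those within exposed lungs were added after seeing the air contrasts. SE is the log2 fold change over the square root of F. CPM used TMM factors, and levels a prior count of 2. All 73 members passed the filter at every day. Of 72 members matched in RefSeq, 18 overlap another gene there. Among the 18 are Mrpl16, Mrpl27, Mrps6 and Mrps12, named above, and Mrpl14, the 1 of them called at day 27.

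Members, lists and tests were chosen with earlier results of these data known. Named were up to 12 called members per comparison and direction by p, or the 3 with the smallest p, and 7 members of known role at each day. Alternatives were RLE factors, other filters, DESeq2 1.42.0, limma-voom (limma 3.58.1), 1 surrogate variable (sva 3.50.0), total count as a covariate, 48 libraries in 1 fit, summed identifiers, summed close pairs and leaving out each library. The scripts were tested on simulated counts. Coordinates are GRCr8, for sequences only.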

Additional observations from a re-analysis of the deposited data

Results flagged for a closer look

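Single libraries stood apart from the other 7 of their group for 9 members, by the ratio of the gap to the nearest library to the whole range. Of 156 groups checked 9 were beyond Dixon's critical value, and chance gives about 1 in 20. Libraries numbered 8 were the highest for Mrpl41 in exposed lungs at day 1 (28.9 CPM), for Mrps12 in air lungs at day 7 (17.4 CPM) and for Mrpl14 in air lungs at day 7 (36.0 CPM), and the lowest for Mrps30 in exposed lungs at day 1 (15.8 CPM). In exposed lungs at day 7, Mrps6 was lowest in library 7 (7.78 CPM), Mrpl18 highest in library 3 (35.3 CPM) and Mrpl51 highest in library 1 (38.6 CPM). At day 27, Mrpl17 was highest in air library 7 (85.3 CPM), the library that also had the highest mean level of the members. Mrps17 was lowest in exposed library 6 (19.35 CPM).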

How the results depend on the processing

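The count of members lower at day 27 was 9, and 18 with DESeq2, 24 with all 48 libraries in 1 fit, 0 with each close pair summed and 0 to 20 with single libraries left out; the cause was not tested. It was 7 with no filter on low counts and 9 with RLE factors, limma-voom, 1 surrogate variable, total count as a covariate, a mean of at least 1 CPM or summed identifiers. At days 1 and 7 the count was 0 in every alternative run. The share of all genes called under each alternative is not given here, so these counts describe the members only. DESeq2 called 2 members for day 27 minus day 1 and 5 for exposed lungs at day 7 against day 1. With each close pair summed, 7 were called in the average over days, 13 in air lungs at day 27 against day 1 and 0 in exposed lungs at day 7 against day 1. The difference in mean level kept its direction in every alternative, from -0.06 to -0.02 at day 1, from -0.06 to -0.03 at day 7 and from -0.18 to -0.14 at day 27 with single libraries left out. Uncalled members near 0 changed sign. With 1 surrogate variable Mrps12 at day 1 was 0.0058 and Mrpl44 at day 27 was 0.0032. With single libraries left out the log2 fold changes ran from -0.065 to 0.0016 for Mrps30, from -0.018 to 0.054 for Mrpl44 and from -0.10 to 0.00093 for Mrps12 at day 1, from -0.020 to 0.068 for Mrps36 and from -0.057 to 0.0082 for Mrpl12 at day 7, and from -0.081 to 0.15 for Mrpl33 and from -0.032 to 0.035 for Mrpl44 at day 27. No paired analysis was possible because the labels number animals and give no number shared between groups. Depth limits Mrpl1 and Mrpl33, whose SE were 0.48 and 0.21 at day 27.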
